A study of Mus musculus with 8 samples.

Results

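The genes described here set and release the brake on translation in the integrated stress response: the eIF2 kinases Eif2ak1, Eif2ak2, Eif2ak3 and Eif2ak4, their substrate Eif2s1, the phosphatase subunits Ppp1r15a and Ppp1r15b, and Eif4ebp1, Sesn2 and Ddit4. They were taken by symbol from the probe-to-gene table, using probe sets that name 1 gene only and, where a gene has several, the one with the highest mean. Of these 10 genes, 9 were measured among 22180 genes in all, each by 1 probe set; Eif2s1, which encodes the alpha subunit of eIF2, is not in that table and was not analysed here. The arrays measured transcripts, so neither the phosphorylation of eIF2 nor the activity of any kinase was observed.

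The 8 arrays hold epidermal RNA of C57BL/6J newborns at postnatal day 0. In 4 of them the mice carried the genotype label K320E-TwinkleEpi, with a mutant of Twinkle, the helicase of mitochondrial DNA replication, expressed by way of the K14 promoter. That promoter is active in basal keratinocytes. The other 4 were controls labelled R26-K320E-TwinkleloxP/+, a label that also names the K320E-Twinkle allele, with loxP. Whether the promoter acts on that allele directly or through recombination at loxP was not examined here. The comparison asks how epidermal transcripts differ at birth between the genotypes, called K320E and control below. Whether each array holds a different animal is not stated in the labels, so the p-values measure spread that may in part be technical. Sex-linked transcripts, given below, differed between arrays within each group, so the arrays of a group do not all hold the same RNA.

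In the integrated stress response each kinase answers to its own kind of stress: Eif2ak1 (HRI) to haem shortage and to mitochondrial damage relayed by OMA1 and DELE1, Eif2ak2 (PKR) to double-stranded RNA, Eif2ak3 (PERK) to unfolded proteins in the endoplasmic reticulum (ER), and Eif2ak4 (GCN2) to uncharged tRNA. All of them phosphorylate the alpha subunit of eIF2, which blocks its exchange factor eIF2B, lowers general translation and favours translation of the transcription factor ATF4. Ppp1r15a (GADD34, induced by stress) and Ppp1r15b (CReP, constitutive) bring protein phosphatase 1 to eIF2 and reverse the mark, while 4E-BP1 blocks the cap-binding factor eIF4E, and Sestrin 2 and REDD1 restrain mTORC1, the kinase that inactivates 4E-BP1.

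The promoters of these genes were searched for short motifs through which such signals can be read. Windows from 250 bases before to 50 bases after the gene start were taken from RefSeq (GRCm38.p6) for 8 of the 10 genes; Eif4ebp1 and Ppp1r15b are missing. Searched on both strands were TGATGNAA, the core of the site bound by ATF4 with a C/EBP partner, TGACGTCA, the cAMP response element, and the core of the interferon-stimulated response element (ISRE), written as GAAA, any 2 bases and GAAA again. The sequences below show the matches in capitals, with Asns and Slc7a11, targets of ATF4 whose transcripts rose, beside Ppp1r15a, Sesn2 and Eif2ak2. All lie on the minus strand and read 5′ to 3′ along the gene.
Ppp1r15a, chr7:45526269-45526388, TGACGTCA in capitals: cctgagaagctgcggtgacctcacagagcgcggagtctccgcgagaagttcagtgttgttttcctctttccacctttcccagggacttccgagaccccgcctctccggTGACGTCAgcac
Sesn2, chr4:132510457-132510576, no match: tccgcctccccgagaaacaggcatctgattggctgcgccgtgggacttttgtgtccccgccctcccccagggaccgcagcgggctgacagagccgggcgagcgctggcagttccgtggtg
Asns, chr6:7693210-7693269, TGATGNAA in capitals: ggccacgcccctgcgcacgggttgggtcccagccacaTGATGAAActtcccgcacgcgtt
Slc7a11, chr3:50443644-50443693, TGATGNAA in capitals, once on each strand: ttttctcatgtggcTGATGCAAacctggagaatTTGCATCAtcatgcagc
Eif2ak2, chr17:78882533-78882562, ISRE core in capitals: tccgccggGAAAACGAAAcagaagagaacc

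TGATGNAA was in 0 of the 9 windows of the 8 members, against 3.97% of all 32851 windows and 10 of the 31 windows (32.3%) of a list of ATF4-axis genes. Among the called genes of that list it was in 3 of 13 windows (23.1%), and both Asns and Slc7a11 were picked for printing because they hold it. TGACGTCA was in 1 of the members' windows, that of Ppp1r15a, 12 to 5 bases before the start, against 1.79% of all windows. The ISRE core was in 3 of the 9, those of Eif2ak2, Eif2s1 and Ppp1r15a, against 3.44% of all windows. In Eif2ak2 it lies 19 to 28 bases after the start. These are matches of letters, not measured binding, and the windows leave out introns and distal elements. With 9 windows, the absence of a motif found in 3.97% of all windows says little.

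Twnk matched the genotype labels on all 8 arrays, at 8.91 to 9.28 on the log2 intensity scale in K320E and 6.55 to 6.95 in controls. Keratinocyte genes were high in both groups, with the mean of 7 markers at 11.85 to 11.99 in K320E and 11.78 to 11.92 in controls. Sex-linked transcripts set 2 control arrays apart. Control replicate 2 carried both Xist (9.27) and Y-linked genes (mean 9.05), and control replicate 3 was low for both (6.17 and 4.75). Values without these 2 control arrays are given where they change a count of calls. K320E replicate 3 had low Xist (6.84) and high Y-linked genes (mean 8.64). The other K320E arrays had Xist at 12.07 to 12.15 and Y-linked means of 4.75 to 4.82, so sex-linked transcripts were mixed in that group too. Of 13 lists of cell type markers, 4 had mean levels that did not overlap between the groups. The mean of the hair structure genes was at 7.45 to 7.95 in K320E and 7.98 to 9.66 in controls; all 11 measured genes of 12 had negative fold changes (median -1.09) and 0 were called, but without controls 2 and 3 the median was -1.80 and 7 were called lower (limma). The mean of the sebocyte genes was at 6.86 to 7.15 against 7.47 to 8.19, with 6 of 6 negative and 0 called. That of the Langerhans and dendritic cell genes was at 5.85 to 5.94 against 6.29 to 6.43, with 5 of 5 measured negative and 2 called lower, H2-Aa and H2-Ab1 (1, H2-Aa, without controls 2 and 3). The neutrophil mean was at 5.67 to 5.75 against 5.32 to 5.64, with 5 of 7 positive, 0 called and a median of 0.0085. Ly6g, Mpo, Camp and Elane had fold changes between -0.02 and 0.01. Cxcr2 had 1.32 (limma adjusted p = 0.15), or 1.85 without controls 2 and 3 (limma adjusted p = 0.015). Those of Ngp and Csf3r are not given here. Some lists whose levels overlapped also leaned one way. The skeletal muscle mean was at 6.82 to 8.37 against 6.26 to 7.35, with 6 of 6 positive (median 0.91). That of the T cell genes was at 5.69 to 6.35 against 6.26 to 6.82, with 4 of 4 measured negative (median -0.57). Of the melanocyte genes, 6 of 6 were negative (median -0.34), and each of these lists had 0 called. In bulk tissue, fewer cells of a type and less RNA per cell cannot be told apart. The part of these shifts in the results below was not tested. Fits with the hair structure level as a covariate are given below. That level does not overlap between the groups, so these fits cannot fully separate it from genotype.

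Among the members, the transcript of 4E-BP1 was the 1 that changed past the threshold, with about 2-fold more in K320E epidermis. For Ppp1r15b and Sesn2 the lowest K320E array lay above the highest control, without the test across all genes being passed. The kinase transcripts were not called in either direction. So 1 of 9 measured members was called (limma, adjusted p under 0.05 with the Benjamini-Hochberg method over all genes), where 0.879% of all genes were. Groups that do not overlap were seen for 3 of 9, where 9.25% of all genes had them; all 3 were higher in K320E and 0 lower, against 5.50% and 3.75% of all genes. Positive fold changes were seen for 6 of 9, against 49.8% of all genes. At an unadjusted limma p under 0.05, 5 of the 9 passed, against 14.8% of all genes. The median log2 fold change of the 9 was 0.19, and that of all genes was -0.00052. The members were chosen with earlier results of these data known, so these counts are a description.

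**Figure D1:**
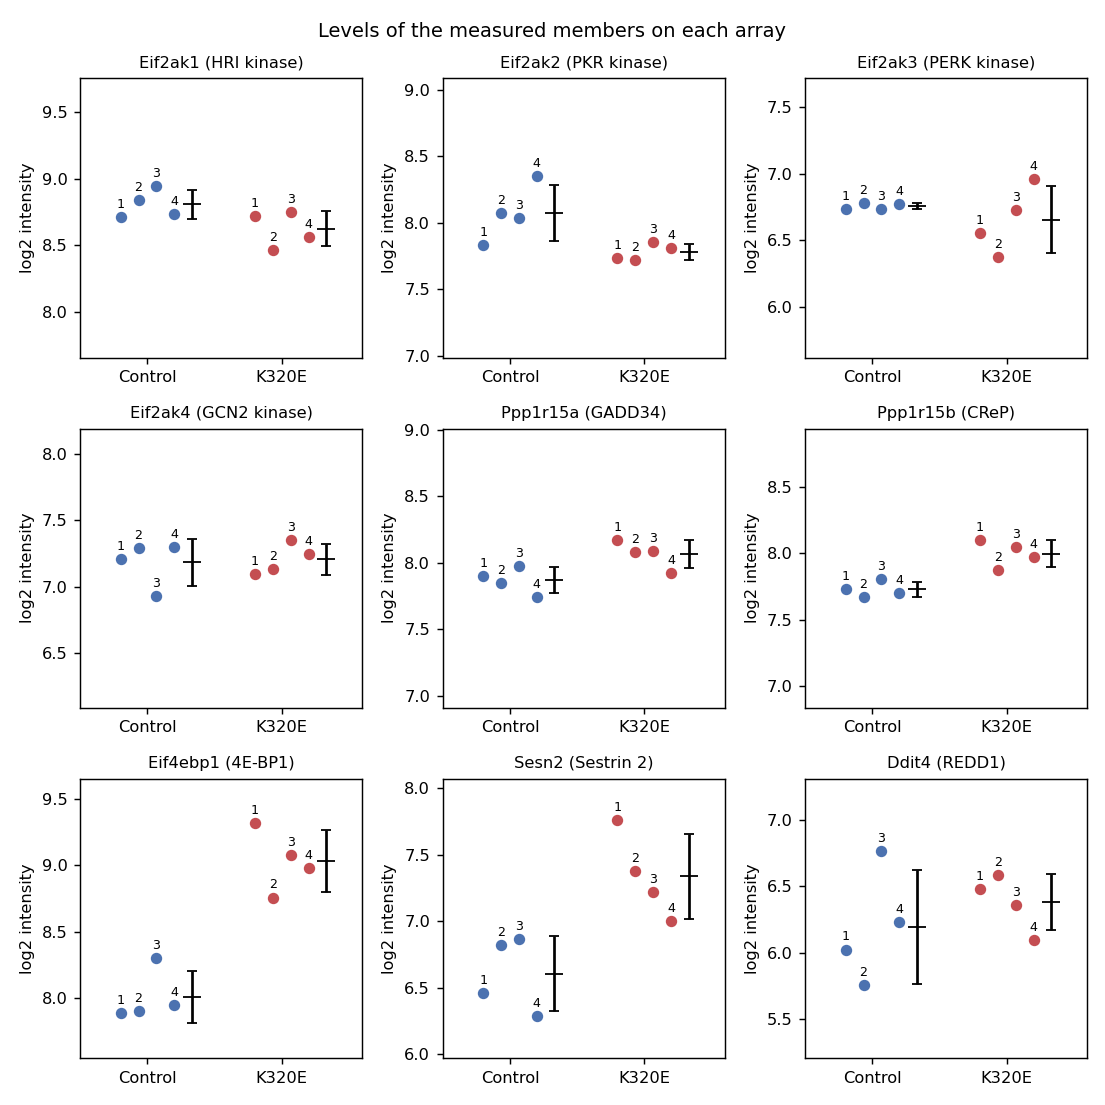
Log2 intensity of each measured member on the 8 arrays, with points numbered by replicate, blue for control and red for K320E; the black mark and bar are the mean and SD of 4 arrays, and every panel spans the same log2 range. Eif4ebp1, Sesn2 and Ppp1r15b are the 3 members whose groups do not overlap.

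The kinases, the sensors of the pathway, had fold changes between -0.29 and 0.02, with no call. Those of Eif2ak1, Eif2ak2 and Eif2ak3 lay below the interquartile range of all genes, from -0.07 to 0.09. Eif2ak1, the kinase reached by the mitochondrial relay, measured 8.72, 8.47, 8.75 and 8.57 in K320E replicates 1 to 4 and 8.71, 8.84, 8.94 and 8.73 in controls 1 to 4. The groups overlap, with 2 of the 4 K320E arrays below the lowest control. The log2 fold change, K320E minus control, was -0.18 (SE 0.08, 95% interval -0.37 to 0.0049, limma adjusted p = 0.35). A probe set that names both Aimp2 and Eif2ak1 was left out. It went the other way, 0.36 higher in K320E, and is described at the end.

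Eif2ak2, the sensor of double-stranded RNA and itself an interferon-stimulated gene, measured 7.73, 7.72, 7.86 and 7.81 in K320E and 7.83, 8.08, 8.04 and 8.35 in controls. Of the K320E arrays 3 lie below the lowest control, and K320E replicate 3 lies just above it. The fold change of -0.29 was the lowest of the 9 members (SE 0.10, 95% interval -0.52 to -0.07), and it did not pass the test (limma adjusted p = 0.22). Of all genes, 96.9% had a higher fold change. Control replicate 4, the highest array for Eif2ak2, was also the highest for hair structure genes (9.66), and without it the fold change was -0.20. Control replicate 1, also high for hair structure genes (9.02), was the lowest control for Eif2ak2, and without it the fold change was -0.37. With the hair structure level as a covariate the fold change was -0.19.

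Eif2ak3, the ER sensor, measured 6.55, 6.37, 6.73 and 6.96 in K320E and 6.73, 6.78, 6.74 and 6.77 in controls. The controls lie within 0.05 log2 units of each other, while the K320E arrays fall on both sides of them: 3 below and 1 above. The fold change was -0.10 (SE 0.11, 95% interval -0.35 to 0.15, limma adjusted p = 0.75). Without K320E replicate 2 it was -0.0085 and without K320E replicate 4 it was -0.20.

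Eif2ak4, the sensor of uncharged tRNA, had the smallest difference of all members. It measured 7.09, 7.13, 7.35 and 7.25 in K320E and 7.21, 7.29, 6.93 and 7.30 in controls, so the groups are interleaved. The fold change was 0.02 (SE 0.10, 95% interval -0.19 to 0.24, limma adjusted p = 0.95), and it turned negative without K320E replicate 3 (-0.02), without control replicate 3 (-0.06) and without controls 2 and 3 together (-0.05).

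Whether the kinases moved unequally was tested on differences taken within each array. For Eif2ak2 minus Eif2ak4 this difference averaged 0.58 ± 0.06 (K320E) and 0.89 ± 0.23 (controls; SD, n = 4 arrays each), a change of -0.32 (SE 0.12). Its exact two-sided permutation p was 0.057, or 0.26 adjusted over the 9 pairs of genes compared. The other 5 pairs of kinases had changes between -0.21 and 0.11 with exact permutation p from 0.229 to 0.743. With 4 arrays against 4 the smallest p this test allows is 0.0286, and 1 pair alone at that p has an adjusted p of 0.26 over 9 pairs. A single pair could therefore not pass, and the test says nothing on whether the kinases moved alike.

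**Figure D2:**
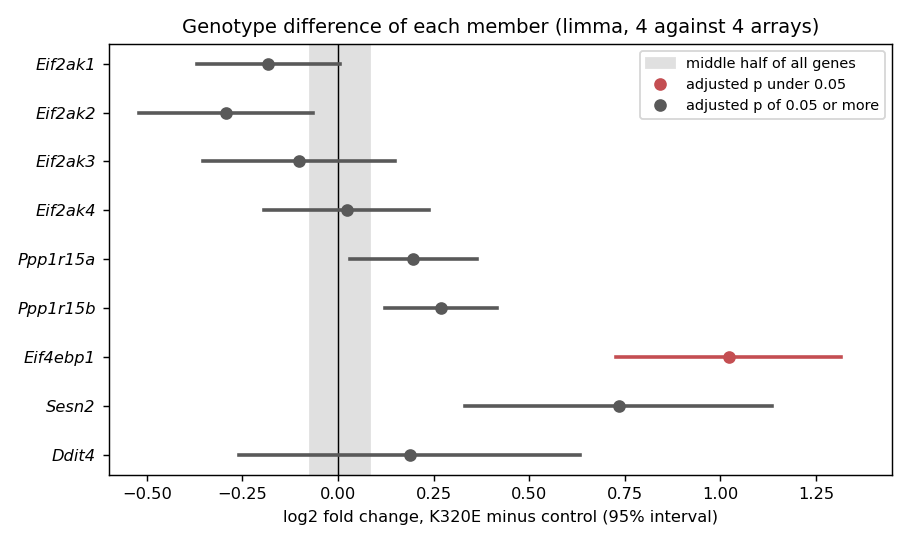
Log2 fold change of each member, K320E minus control, with the 95% interval from limma; the grey band is the interquartile range of all genes, from -0.07 to 0.09. The interval of Eif4ebp1, 0.73 to 1.32, lies farthest from 0, and Eif4ebp1 is the 1 member past the threshold.

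The phosphatase subunits had small positive fold changes. Ppp1r15b, the constitutive subunit CReP, measured 8.10, 7.87, 8.05 and 7.97 in K320E and 7.73, 7.67, 7.81 and 7.70 in controls. All 4 K320E arrays lie above all 4 controls, with a gap of 0.06 log2 units between the groups. The fold change was 0.27, or 1.21-fold (SE 0.07, 95% interval 0.12 to 0.42), with a limma adjusted p of 0.11. Its adjusted p ran from 0.081 to 0.24 when each array was left out in turn.

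Ppp1r15a, the stress-induced subunit GADD34 and a target of ATF4, measured 8.17, 8.08, 8.09 and 7.92 in K320E and 7.90, 7.85, 7.98 and 7.75 in controls. The lowest K320E array, replicate 4, lies below control replicate 3, and the other 3 lie above all controls. The fold change was 0.20, or 1.15-fold (SE 0.07, 95% interval 0.03 to 0.36, limma adjusted p = 0.25). With the hair structure level as a covariate it was 0.11. Within each array, Ppp1r15a minus Ppp1r15b averaged 0.07 ± 0.11 (K320E) and 0.14 ± 0.06 (controls; SD, n = 4 arrays each), a change of -0.07 (SE 0.06, exact permutation p = 0.343), in the same 9 pairs, where no single pair could pass.

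Eif4ebp1 encodes 4E-BP1, which holds eIF4E away from the cap-binding complex until mTORC1 phosphorylates it, and is known as an ATF4 target in other tissues. Its probe set (17500327) measured 9.32, 8.76, 9.08 and 8.98 in K320E. The controls measured 7.89, 7.91, 8.30 and 7.95. The groups are 0.46 log2 units apart at their nearest arrays, and the high control is replicate 3. The mean was 9.03 ± 0.23 (SD, n = 4) in K320E and 8.01 ± 0.19 (SD, n = 4) in controls. The log2 fold change was 1.02 (SE 0.13, 95% interval 0.73 to 1.32, limma adjusted p = 0.013) or 2.03-fold. It ranked 58 from the highest among the 22180 fold changes.

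The fold change of Eif4ebp1 lay between 0.93 and 1.12 whichever array was left out, and the call was lost without K320E replicate 3 (adjusted p = 0.051). With the hair structure level as a covariate, which left 1 called gene among all genes, the fold change was 0.96 and the adjusted p was 0.21. Without controls 2 and 3 the fold change was 1.11 (limma adjusted p = 0.028).

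Eif4ebp2, the paralog of Eif4ebp1, measured 8.81, 8.04, 8.10 and 7.92 in K320E and 7.93, 8.05, 8.02 and 7.71 in controls, a fold change of 0.29 (SE 0.18, limma adjusted p = 0.51). K320E replicate 1 stands above the other 7 arrays. Within each array, Eif4ebp1 minus Eif4ebp2 lay between 0.51 and 1.06 in K320E and between -0.14 and 0.28 in controls, so the groups do not overlap. The change of 0.73 (SE 0.16) had an exact permutation p of 0.0286, the smallest the design allows, and 0.26 adjusted over the 9 pairs.

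The genes whose levels followed Eif4ebp1 most closely over the 8 arrays, among 19382 named genes, were Bysl (r = 0.991), which acts in small ribosomal subunit assembly, Pglyrp3 (r = 0.990), a peptidoglycan-binding protein, and Tinagl1 (r = 0.990), a matrix protein. For Ppp1r15b they were Tinagl1 (r = 0.987), Praf2 (r = 0.986) and Lrrc59 (r = 0.985). These correlations share the 8 arrays and the genotype difference: 5 of the 6 pairs involve a gene called in the same fit, the exception being Praf2 (fold change 0.29, limma adjusted p = 0.12).

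Sesn2 and Ddit4 both act on mTORC1, Sestrin 2 as a leucine sensor that binds GATOR2 and REDD1 through the TSC complex. Sesn2 measured 7.76, 7.38, 7.22 and 7.002 in K320E and 6.46, 6.82, 6.86 and 6.28 in controls. The groups do not overlap, and the nearest arrays, K320E replicate 4 and control replicate 3, are 0.14 log2 units apart. The K320E mean was 7.34 ± 0.32 and the control mean 6.60 ± 0.28 (SD, n = 4 arrays each). The log2 fold change was 0.73 (SE 0.18, 95% interval 0.33 to 1.14) or 1.66-fold. It ranked 135 from the highest among all genes but did not pass the test (limma adjusted p = 0.11).

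Hair structure and Sesn2 levels ran in opposite directions among the controls, but in no common direction among the K320E arrays. The controls highest for hair structure, replicate 4 (9.66) and replicate 1 (9.02), were the lowest for Sesn2. In K320E, replicate 1 had the highest Sesn2 level (7.76) at a hair structure level of 7.83. Replicate 3 had 7.22 at the lowest hair structure level (7.45), and replicate 4 the lowest Sesn2 level (7.002) at the highest (7.95). The skeletal muscle mean was 6.28, 7.35, 7.25 and 6.26 in controls 1 to 4, so replicates 1 and 4 were lowest for it too. In K320E it was 7.79, 6.82, 8.37 and 6.97, and its part in the Sesn2 difference was not tested. With the hair structure level as a covariate the fold change of Sesn2 was 0.39. Without controls 2 and 3 it was 0.97 (limma adjusted p = 0.084). Without K320E replicate 1, the highest array, it was 0.59.

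Ddit4 measured 6.48, 6.59, 6.36 and 6.10 in K320E and 6.02, 5.75, 6.76 and 6.23 in controls. The controls span the whole range of the K320E arrays, with replicates 1 and 2 below and replicate 3 above all of them. The fold change was 0.19 (SE 0.20, 95% interval -0.26 to 0.63, limma adjusted p = 0.74), and leaving out control replicate 2 or 3 gave 0.04 or 0.38. Within each array, Sesn2 minus Ddit4 averaged 0.96 ± 0.22 (K320E) and 0.41 ± 0.47 (controls; SD, n = 4 arrays each), a change of 0.55 (SE 0.26, exact permutation p = 0.114).

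The other Sestrins had fold changes below 0. Sesn1, a p53 target, measured 8.53, 9.02, 8.92 and 8.72 in K320E and 8.95, 9.11, 9.61 and 9.61 in controls, a fold change of -0.52 (SE 0.17, limma adjusted p = 0.20). Sesn3 had a fold change of -0.17 (SE 0.10, limma adjusted p = 0.50). Neither passed the test, and the differences between the Sestrins were not tested.

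In the list of ATF4-axis transcription factors and targets, 13 of 28 measured genes rose and 0 fell (limma), where 0.685% of all genes were called higher, and all 28 had positive fold changes with a median of 0.50. Largest were the increases of Mthfd2, which works in the mitochondrial folate cycle, by 1.59 (SE 0.14), Cth, which makes cysteine, by 1.46 (SE 0.15), and the cystine transporter Slc7a11 by 1.29 (SE 0.17), with limma adjusted p of 0.0028, 0.0057 and 0.013. Asns, the asparagine synthetase whose promoter is shown above, rose by 0.99 (SE 0.10). The list was drawn up with earlier results of these arrays known, so its count is no independent support. It held 14 called genes without K320E replicate 2, but fewer without K320E replicate 1 (8), K320E replicate 3 (4), K320E replicate 4 (5), control replicate 1 (6), control replicate 2 (6), control replicate 3 (7) or control replicate 4 (7), and 6 without controls 2 and 3. With the hair structure level as a covariate, or with a minimum fold of 1.5, 0 of the 28 were called, and the median was 0.49 with that covariate.

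The mean of the 28 ATF4-axis genes was 8.92, 8.69, 8.81 and 8.84 in K320E replicates 1 to 4, and 8.21 to 8.29 in controls. K320E replicate 1 was the highest array for this mean and also for Eif4ebp1, Sesn2, Ppp1r15a and Ppp1r15b. Replicate 2 was the lowest K320E array for the mean, Eif4ebp1 and Ppp1r15b, but replicate 4 was the lowest for Sesn2 and Ppp1r15a while its mean was second highest. Control replicate 3 was the highest control for all 4 genes, and its mean (8.25) was below those of controls 1 and 2 (8.29 and 8.26). Eif4ebp1 and Sesn2 are not in the list. With 4 arrays a group, and groups that stand apart, no correlation is given.

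**Figure D3:**
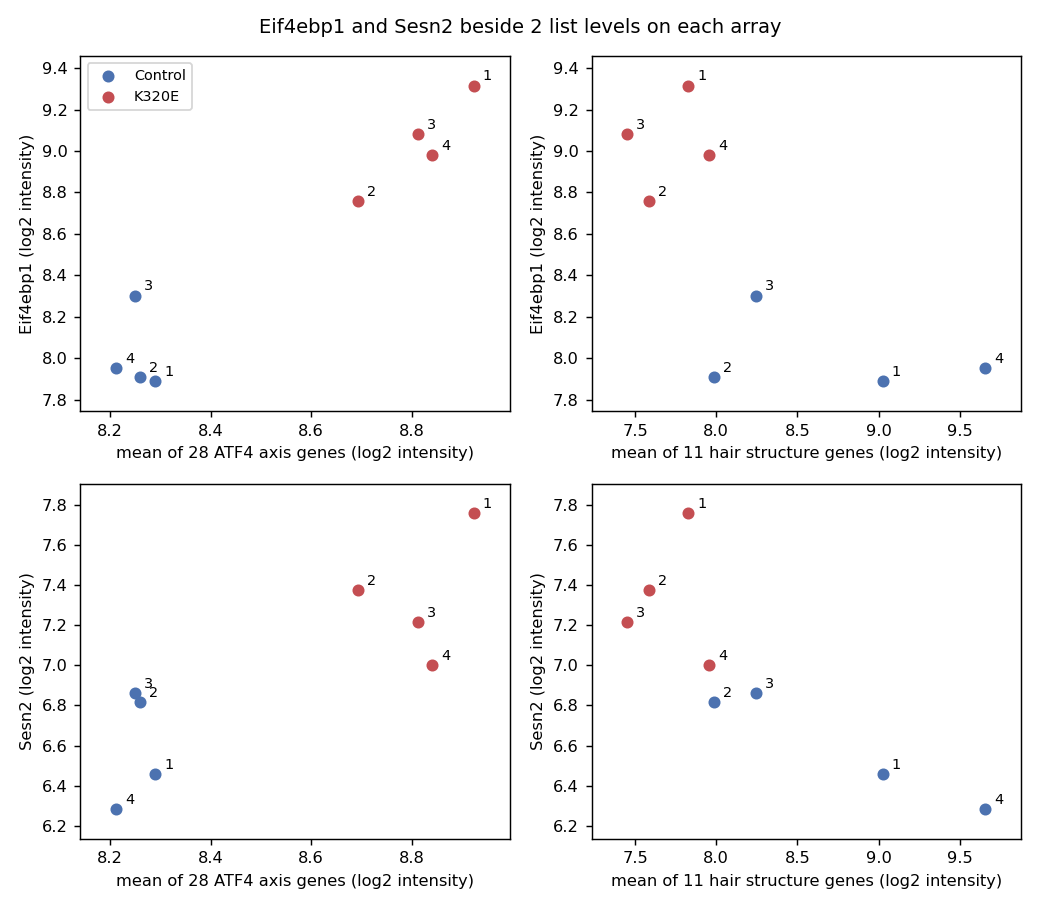
Log2 intensity of Eif4ebp1 (top) and Sesn2 (bottom) on each array, against the mean of 28 ATF4-axis genes (left) and of 11 hair structure genes (right); points are numbered by replicate, blue for control and red for K320E. The K320E arrays lie at 8.69 to 8.92 on the ATF4 axis and the controls at 8.21 to 8.29, and on the hair structure axis at 7.45 to 7.95 and 7.98 to 9.66.

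Among the transcription factors of the pathway, Ddit3 passed the threshold narrowly. Ddit3, which encodes CHOP and raises Ppp1r15a in other cells, measured 8.16, 8.08, 8.30 and 8.26 in K320E and 7.94, 7.86, 7.74 and 7.77 in controls, and rose by 0.38 (SE 0.07, limma adjusted p = 0.0497), a call kept in 5 of 20 alternatives. Atf4 had a fold change of 0.33 (SE 0.09, limma adjusted p = 0.14), Atf5 one of 0.27 (limma adjusted p = 0.082) and the feedback inhibitor Trib3 one of 0.35 (limma adjusted p = 0.083), all with groups that do not overlap. These genes, and Asns above, fall outside the naming rule, as do others named below for their role, and were picked with their values known.

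The machinery around the kinases had no called gene. In eIF2 and its exchange factor eIF2B, 0 of 6 measured subunits were called, with fold changes between -0.08 (Eif2s2) and 0.22 (Eif2b2, limma adjusted p = 0.47). Among 13 regulators of the kinases and catalytic subunits of protein phosphatase 1, 0 were called and the median was -0.0027, or 0.15 without controls 2 and 3. The mitochondrial protease Oma1 had a fold change of -0.06 and its relay partner Dele1 one of 0.21 (limma adjusted p = 0.80 and 0.37). Gcn1, the coactivator of GCN2, had a fold change of 0.17, and Dnajc3, an inhibitor of PERK and PKR, one of -0.0027. At an unadjusted p under 0.05, 0 of the 6 subunits and 2 of the 13 regulators passed, where 14.8% of all genes did.

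The ER stress list, which reads the ATF6 and XBP1 arms beside Eif2ak3, had 0 of 17 genes called while all 17 fold changes were positive (median 0.24). Groups that do not overlap were seen for 6 of the 17, all higher, against 5.50% of all genes. Hspa5, the ER chaperone that also restrains PERK, had the highest fold change, 0.48 (SE 0.15, limma adjusted p = 0.17), and overlapping groups. Hspa5 is also in the list of kinase regulators, while Dnajc3 (-0.0027) is in that list only. The count of positive fold changes thus depends on how the lists were divided. Sel1l, of the ER degradation machinery, had one of 0.38 (SE 0.09, limma adjusted p = 0.10). At an unadjusted p under 0.05, 10 of the 17 passed, against 14.8% of all genes.

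The interferon-stimulated list was given beside Eif2ak2, which belongs to the same programme. Of its 17 measured genes 0 were called, 9 fold changes were positive and 8 negative, and the median was 0.0078. At an unadjusted p under 0.05, 4 of the 17 passed, against 14.8% of all genes. Irf7, which drives interferon transcription, had a fold change of -0.21 (SE 0.07, limma adjusted p = 0.19) with groups that do not overlap.

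Around 4E-BP1, mTORC1 and its upstream regulators had 0 of 21 genes called (5 at an unadjusted p under 0.05, where 14.8% of all genes passed) and a median of 0.09, and the cap-binding translation factors 0 of 12 (4 at an unadjusted p under 0.05) with a median of 0.07. Without controls 2 and 3, 1 of the 21 was called, Nprl2, a subunit of the GATOR1 complex that restrains mTORC1, at 0.72 (SE 0.11, limma adjusted p = 0.039), against 0.43 with all 8 arrays (limma adjusted p = 0.24). Larp1, a repressor of terminal oligopyrimidine mRNAs under mTORC1 control, had a fold change of 0.32 (SE 0.08, limma adjusted p = 0.10). Eif4e, the partner that 4E-BP1 blocks, had one of 0.25 (SE 0.09, limma adjusted p = 0.23), again with groups that do not overlap. Eif4ebp3, Eif4g1 and Rps6kb1 were not analysed here.

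Sesn2 and Ddit4 also answer to hypoxia, p53 and glucocorticoids, and lists of genes induced by each were counted. Of 11 hypoxia-induced genes 1 rose, where 0.685% of all genes did: the vasodilator peptide gene Adm, by 2.05 (SE 0.23, limma adjusted p = 0.0068). In that list 7 fold changes were positive and 4 negative (median 0.23). Higher groups that do not overlap were seen for 3 of the 11 (5.50% of all genes), and 4 passed at an unadjusted p under 0.05 (14.8% of all genes). Of 11 p53 targets 1 rose, the kinase Plk2, by 0.66 (SE 0.06, limma adjusted p = 0.0037). The p53 list had 8 positive fold changes (median 0.09), 5 genes with higher groups that do not overlap (5.50% of all genes), and 7 that passed at an unadjusted p under 0.05 (14.8% of all genes). Of 7 glucocorticoid-induced genes 0 were called (1 at an unadjusted p under 0.05), with Dusp1 at 0.44 (SE 0.17, limma adjusted p = 0.27). Adm and Plk2 were each called in 18 of 20 alternatives.

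**Figure D4:**
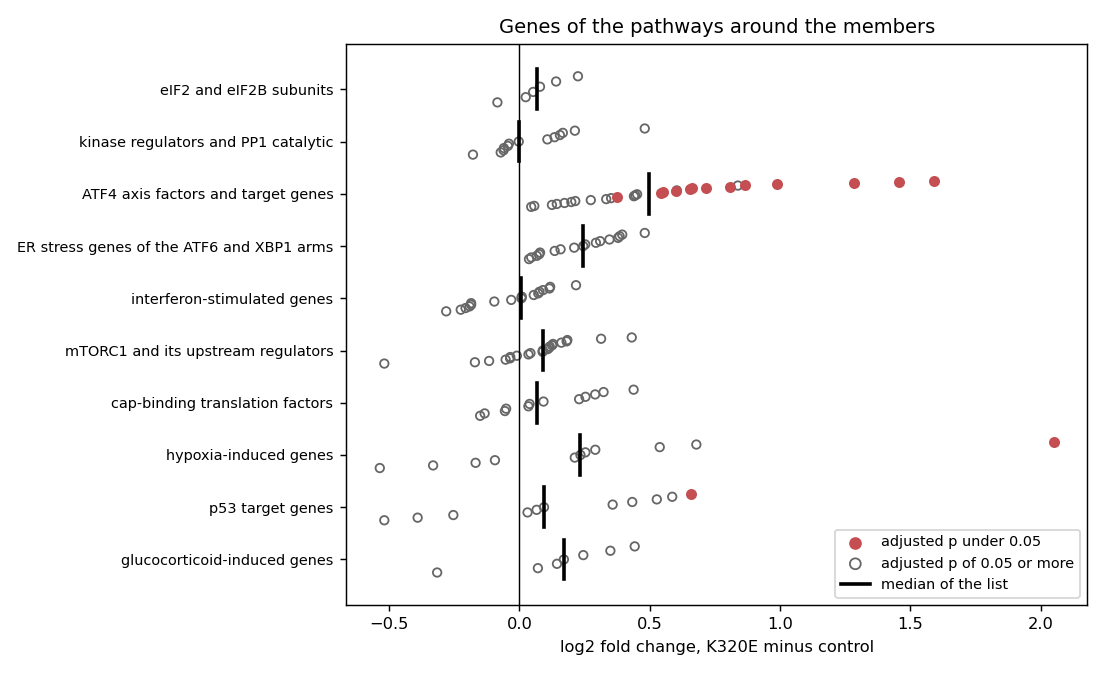
Log2 fold change of each gene of the 10 pathway lists, K320E minus control; filled red points passed the threshold over all genes, open points did not, and the black line is the median of the list. The ATF4-axis list holds 13 of the called genes, hypoxia and p53 lists 1 each, and the other 7 lists 0.

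**Figure D5:**
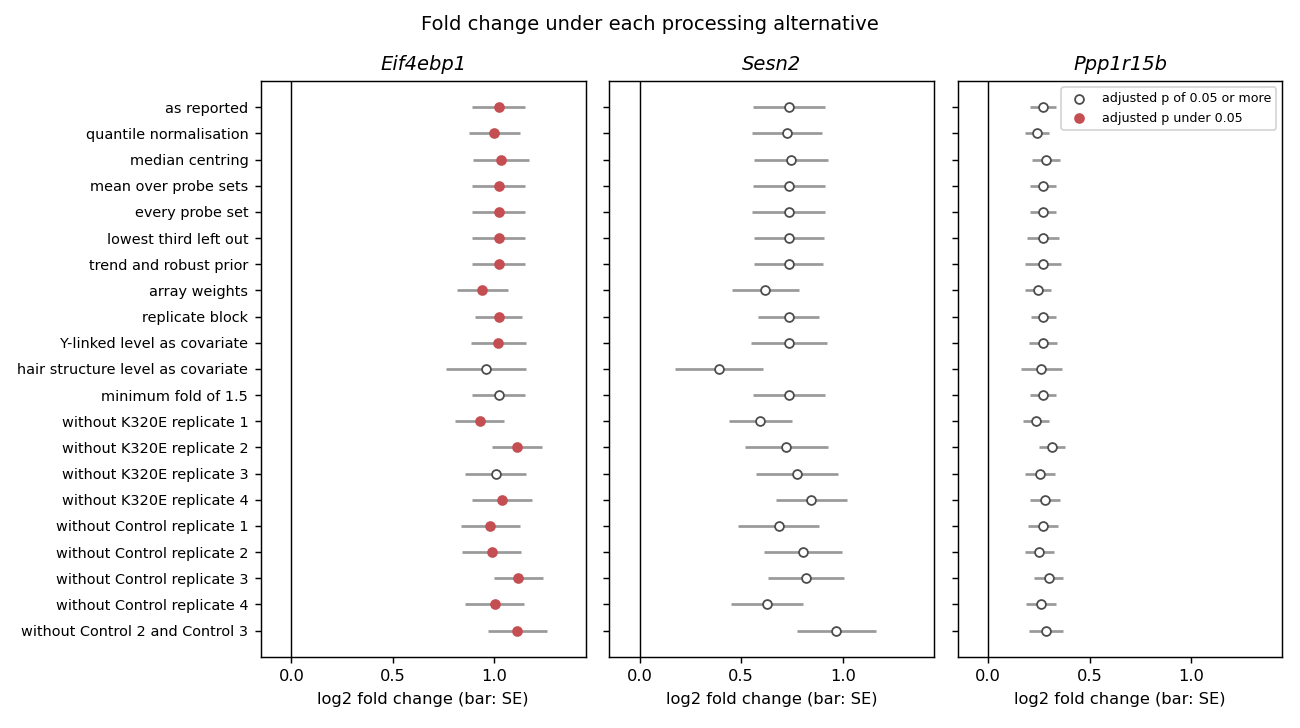
Log2 fold change of Eif4ebp1, Sesn2 and Ppp1r15b under each processing alternative, with the SE as a bar; filled red points have an adjusted p under 0.05. Eif4ebp1 was called in 17 of 20 alternatives and Sesn2 and Ppp1r15b in 0 of 20, and all fold changes of these 3 genes were positive.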

How the data were processed

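The authors deposited log2 intensities for 33793 probe sets on 8 arrays, between 4.31 and 13.1 with array medians of 6.06 to 6.11; per the labels, RNA was amplified with NuGEN Applause WT-Amp Plus ST and labelled with biotin. For background correction, summarisation and normalisation, the method is not given in the sources used here. The files hold no detection calls, and precision is limited by the number of arrays. Gene names came from GEO's platform annotation: 23521 carried 1 symbol, 1814 several and 8458 none, leaving 22180 genes. No pair of arrays was identical.

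The deposited log2 values were fitted with limma 3.58.1 in R 4.3.3 (lmFit, eBayes, genotype as the only term, 8 arrays), with Benjamini-Hochberg adjustment over all genes, a threshold of 0.05 and 95% intervals from the moderated fit. Pairs of genes were compared within arrays by exact two-sided permutation tests (scipy 1.17.1), adjusted over 9 pairs. The fit was tested on simulated data before use.

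The members, the 24 gene lists (225 of 249 entries measured) and the alternatives were chosen with earlier results of these data known. The naming rule takes all members; from each pathway list up to 3 called genes of the largest change, or else the gene with the largest moderated statistic; from each cell type list the 2 genes of the highest mean; and for 2 members the 3 most correlated genes. Promoter windows came from RefSeq, and their motifs were chosen after the values were seen. The alternatives were quantile normalisation, median centring, other uses of probe sets, a filter on the lowest 33.3% of genes, a trend and robust prior, array weights, the replicate number as a block, covariates for Y-linked and hair structure levels, a minimum fold of 1.5, and leaving out arrays.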

Additional observations from a re-analysis of the deposited data

Results flagged for a closer look

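Single arrays that stood apart from the other 3 of their group were looked for with Dixon's 95% critical value. The search covered 64 groups of 4 values (the 9 members and 23 list means, in each genotype). Chance flags about 5% of such groups, which is about as many as are listed here. Eif4ebp1 was at 8.30 in control replicate 3, against a control median of 7.93, and without this array its fold change was 1.12 (limma adjusted p = 0.010). The mean of the sebocyte list was 6.86 in K320E replicate 4, against a K320E median of 7.12, and 8.19 in control replicate 4, against a control median of 7.53.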

How the results depend on the processing

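Over 20 alternatives to the reported fit, the 8 measured members other than Eif2ak4 kept the sign of their fold change; Eif2ak4 turned to -0.02 without K320E replicate 3, -0.061 without control replicate 3 and -0.048 without controls 2 and 3, and ran from -0.061 to 0.061 when 1 array was left out. The count of called members, 1, fell to 0 with the hair structure level as a covariate (Eif4ebp1 0.96, adjusted p = 0.21) and with a minimum fold of 1.5 (1.02, adjusted p = 1), and ran from 0 to 1 over the 8 fits that left out 1 array (1.01, adjusted p = 0.051, without K320E replicate 3). The count of called genes, 195, was 1 with the hair structure covariate and 6 with the minimum fold, and ran from 53 to 173 when 1 array was left out; with that covariate the SE of each of the 9 members was larger. The filter on the lowest 33.3% of genes gave 288 calls and the other settings between 133 and 236. The replicate numbers did not pair the samples (correlations of deviations -0.06 to 0.14), and with them as a block 114 genes were called, Eif4ebp1 among them (adjusted p = 0.035), and 7 of the ATF4-axis list. Within arrays, Eif2ak1 minus Eif2ak2 ran from -0.0051 to 0.17 and Eif2ak1 minus Eif2ak3 from -0.14 to 0.042 when 1 array was left out, and the latter was 0.0044 without controls 2 and 3. Transcripts at low intensity, such as Ddit4, were not tested against background, since no detection calls were used.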

Other observations

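A second probe set (17454908) names both Aimp2, a scaffold of the tRNA synthetase complex, and Eif2ak1, and was left out of the comparison. It measured 9.66, 9.18, 9.28 and 9.17 in K320E and 8.89, 9.14, 9.01 and 8.82 in controls, 0.36 higher in K320E with groups that do not overlap, while the probe set naming Eif2ak1 alone had a fold change of -0.18. Which of the genes this probe set read was not tested.

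Eif2s3y, the Y-linked copy of the gamma subunit of eIF2, was at 7.72 in K320E replicate 3 and 9.38 in control replicate 2, and at 4.75 to 4.81 on the other 6 arrays, so 1 array of each genotype carried it.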
